A study of Homo sapiens with 24 samples.

Results

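RNA that came down with GFP-tagged RUVBL1 was set against RNA that came down with GFP-tagged RPAP3, both after puromycin, in HCT116 cells, a human colorectal carcinoma line. The comparison rests on 8 of the 24 libraries of the series. In the RUVBL1 GFP knock-in line these were 2 libraries from beads coupled to an anti-GFP antibody fragment (GFP beads) and 2 from agarose beads without it (uncoupled beads). In the RPAP3 GFP knock-in line there were likewise 2 from GFP beads and 2 from uncoupled beads. All 8 came from cells given 100 µg/mL of puromycin for 30 min. For each gene the log2 ratio of GFP to uncoupled beads, called enrichment here, was taken in each line, and the RPAP3 enrichment was subtracted from the RUVBL1 enrichment. Of 28307 genes in the count table, 16695 passed the filter on low counts and were tested. Untreated libraries of both lines and RUVBL1 libraries given CB-6644 (0.5 µM, 16 h), an inhibitor of the RUVBL1/2 ATPase, before puromycin are used below for comparison. The labels do not say whether a line was 1 clone.

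RUVBL1 and RUVBL2 are AAA+ ATPases that form rings. With RPAP3 and PIH1D1 they make up R2TP, an HSP90 co-chaperone that assembles RNA polymerases, PIKK kinases, small nucleolar and spliceosomal particles, and RUVBL1 and RUVBL2 are also subunits of the INO80, SRCAP and TIP60 chromatin remodellers. RPAP3 is the scaffold that brings HSP70 and HSP90 to the ring. A chaperone that binds a nascent chain carries the ribosome and its mRNA with it, and puromycin releases nascent chains from the ribosome.

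The 8 puromycin libraries held 18037891 to 47204370 counts each, and the 2 uncoupled libraries of the RUVBL1 line were the shallowest at 20490730 and 18037891. Replicates differed by more than sampling noise in every group (chi-square per degree of freedom 19.8 to 42.7 in these 4 groups), so none were merged. Nothing in the labels ties replicates to separate cultures, and the p-values therefore reflect library-to-library spread that may be technical only. Each line carries 1 bait, so bait, line and experiment cannot be told apart. On principal components of the RUVBL1 line, replicate 2 of GFP beads after CB-6644 lay at 111 and replicate 1 of GFP beads after both drugs at 72 on the first, against −47.8 to 11.7 for the rest. Replicate 2 of untreated uncoupled beads lay at 89.4 on the second, against −44.1 to 31.7. The low ends were puromycin libraries of the 8, uncoupled beads on the first (−47.8 and −40.4) and GFP beads on the second (−44.1 and −41.6). None of the 3 libraries at the high ends, called below the libraries that stood apart, is among the 8, but they enter the shared estimate of spread. The mRNAs of the tagged genes and of RUVBL2, which was not tagged, did not pass the test. The difference was 0.36 ± 0.45 for RUVBL1 (log2, SE), 0.34 ± 0.31 for RUVBL2 and −0.43 ± 0.52 for RPAP3. Epithelial markers of HCT116 summed to 4360.0 CPM or more in each of the 8 libraries, tested markers of blood cells to at most 0.84 CPM, and those of stroma and endothelium to 13.6 to 23.5 CPM. The 3 tested liver markers summed to 11.7 to 13.6 CPM in the 4 RUVBL1 libraries, against 4.4 to 5.54 CPM in the 4 RPAP3 libraries.

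After puromycin 743 genes differed between the baits, 4.45% of those tested, at an adjusted p under 0.05 in edgeR's quasi-likelihood test. Of these, 664 (3.98%) were higher with RUVBL1 and 79 (0.473%) lower. The 664 had a median difference of 1.28 (log2), a median RUVBL1 enrichment of 1.26 and a median RPAP3 enrichment of −0.03, so they stood near 0 with RPAP3. RUVBL1 enrichment was called in 662 of them and RPAP3 enrichment in 0. The genes were chosen on the difference of these enrichments, which favours high RUVBL1 and low RPAP3 values and so fixes part of this. The whole table gave 3293 genes called with RUVBL1 (19.7%), 2095 enriched (12.5%) and 1198 depleted (7.18%), against 16 enriched with RPAP3 (0.0958%) and 0 depleted in the same test. With upper-quartile factors the RUVBL1 split was 1769 enriched and 1926 depleted. Leaving out 1 of the 4 RUVBL1 libraries gave 547 depleted (GFP replicate 1), 204 (GFP replicate 2), 162 (uncoupled replicate 1) and 639 (uncoupled replicate 2). The 16 fell to 1 without RPAP3 GFP replicate B or uncoupled replicate A and to 2 without uncoupled replicate B, and numbered 26 without GFP replicate A and 70 with the RPAP3 line alone. At an unadjusted p under 0.05 in edgeR, 225 genes passed for RPAP3 enrichment, 45 of them lower. DESeq2 also called 0 lower and limma voom 1. The shared spread of the 24 libraries (biological coefficient of variation 0.229) exceeded that of the 4 puromycin libraries of RUVBL1 (0.157) and of RPAP3 (0.111).

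**Figure D1:**
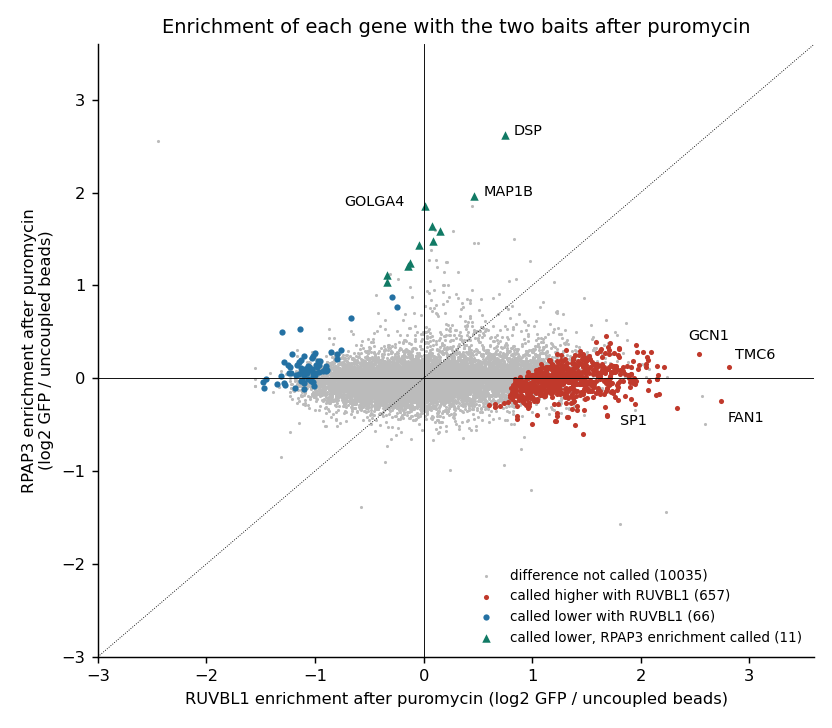
RUVBL1 enrichment (x axis) against RPAP3 enrichment (y axis) after puromycin, both log2 GFP over uncoupled beads, for the 10769 genes with a mean of at least 5 CPM in the 8 libraries. The genes called higher with RUVBL1 (657 drawn) lie along the x axis near 0 with RPAP3. Genes called lower without a called RPAP3 enrichment (66 drawn) lie to the left, and 11 triangles rise along the y axis near 0 with RUVBL1. The 66 drawn are not the same set as the 66 genes with called RUVBL1 depletion, since genes under 5 CPM are left out. The dotted line marks equal enrichment.

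The called genes differed between the lines mostly on the GFP beads, but they were chosen on the difference between bead kinds. For the 664 higher genes the median log2 level on GFP beads was 1.57 higher in the RUVBL1 line than in the RPAP3 line, and 662 of them were above 0 there. On uncoupled beads the same genes differed by a median of 0.23, with a lower quartile of −0.13 and an upper quartile of 0.57. For the 79 lower genes the medians were −1.02 on GFP beads and 0.15 on uncoupled beads. Over all genes the 2 uncoupled groups also differed between the lines, with an SD of 0.85 (log2), against 1.04 for the 2 GFP groups.

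The number of calls depended on which libraries set the spread. Leaving out 1 of the 8 libraries gave 81 genes without replicate 2 of RUVBL1 GFP beads, 134 without replicate 1 of RUVBL1 uncoupled beads and 494 without its replicate 2, while 762 were called without replicate 1 of RUVBL1 GFP beads. It gave 202 and 196 without RPAP3 GFP replicate A or B, and 228 and 324 without RPAP3 uncoupled replicate A or B. Without RUVBL1 GFP replicate 2 or RUVBL1 uncoupled replicate 1, 0 genes were lower with RUVBL1. With the 8 puromycin libraries fitted alone 3435 genes were called, 1958 higher (12.9%) and 1477 lower (9.77%), and without the 3 libraries that stood apart 2998 were called, 1754 higher (10.2%) and 1244 lower (7.23%). The scaling moved the split: with TMM 89.4% of the calls were higher with RUVBL1, and with upper-quartile factors 68.9% of 711. The median difference over all genes was 0.03 with TMM and −0.07 with upper-quartile factors (log2).

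**Figure D2:**
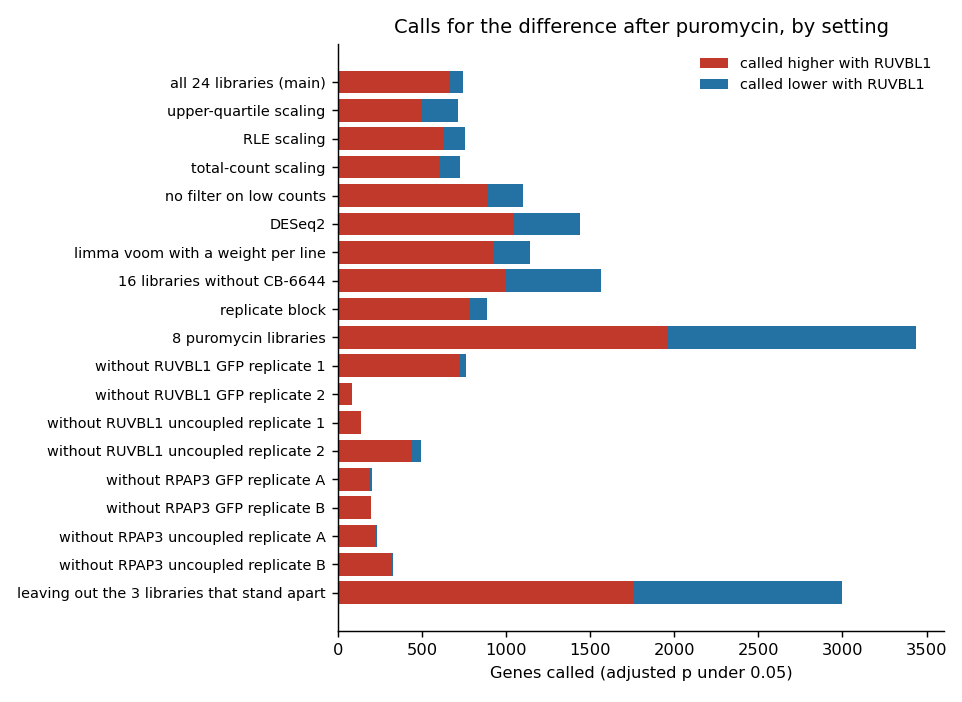
Number of genes called for the difference after puromycin under a range of settings, as bars starting at 0 split into genes higher and lower with RUVBL1. Of the settings drawn, counts run from 81 without RUVBL1 GFP replicate 2 to 3435 with the 8 puromycin libraries alone, and all 24 libraries give 743; fits of the 8 libraries with a block are not drawn.

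FAN1 had the largest difference among genes at 5 CPM or more. FAN1 (chr15:30903852-30943108, GRCh38) encodes a nuclease that repairs DNA interstrand crosslinks. It had 115 and 213 CPM on RUVBL1 GFP beads and 25.8 and 23.1 CPM on RUVBL1 uncoupled beads, against 22.3 and 21.5 CPM on RPAP3 GFP beads and 25.4 and 26.7 CPM on RPAP3 uncoupled beads. Both RUVBL1 GFP libraries lay far above the other 6, which ranged from 21.5 to 26.7 CPM. The difference was 2.99 ± 0.32 (log2, SE; adjusted p = 2.278e-06, edgeR), 7.96-fold, and it was called under all 20 alternative settings.

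TMC6, a membrane protein of the endoplasmic reticulum, and GCN1, which senses collided ribosomes, followed the same pattern. TMC6 had 365 and 618 CPM on RUVBL1 GFP beads and 60.3 and 80.0 CPM on uncoupled beads, against 61.8 and 62.0 CPM on RPAP3 GFP beads and 57.2 and 56.3 CPM on uncoupled beads. GCN1 had 1030.0 and 1415 CPM on RUVBL1 GFP beads and 201 and 219.8 CPM on uncoupled beads, against 120.3 and 156 CPM on RPAP3 GFP beads and 110.4 and 121 CPM on uncoupled beads. In both genes the RUVBL1 GFP libraries were the highest of the 8, while RPAP3 GFP beads exceeded their uncoupled beads by little. The differences were 2.68 ± 0.35 and 2.28 ± 0.36 (log2, SE), with adjusted p of 0.0001468 and 0.000619 in edgeR.

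FASN, the fatty acid synthase, was among the most abundant of these mRNAs. It had 1756 and 2521 CPM on RUVBL1 GFP beads and 442 and 520.1 CPM on uncoupled beads, against 288 and 324 CPM on RPAP3 GFP beads and 324 and 292 CPM on uncoupled beads. The 2 RPAP3 groups overlapped. SP1, a transcription factor that binds GC boxes, had 365 and 511 CPM on RUVBL1 GFP beads and 114 and 119.7 CPM on uncoupled beads, against 106 and 114 CPM on RPAP3 GFP beads and 132 and 123 CPM on uncoupled beads. Here the RPAP3 GFP libraries lay below their uncoupled beads, with an RPAP3 enrichment of −0.22 that did not pass the test. The differences were 2.16 ± 0.37 for FASN and 2.13 ± 0.32 for SP1 (log2, SE).

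The other genes among the 15 with the largest positive difference had values of 2.09 to 2.66. They included OBI1, a ubiquitin ligase of the origin recognition complex (2.23 ± 0.34), INTS1, the scaffold of the Integrator complex, SUN2 of the inner nuclear membrane (2.11 ± 0.34), LSS, the lanosterol synthase (2.15 ± 0.41), and the guidance cue NTN1 (2.09 ± 0.35). ARAP3, C1orf226, STK11IP and the long non-coding RNA LOC103344931 were among them too. STK11IP lost its call in 8 of 20 settings, INTS1 and LSS in 1 each, without RUVBL1 GFP replicate 2, and the other 12 in 0 of 20.

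**Figure D3:**
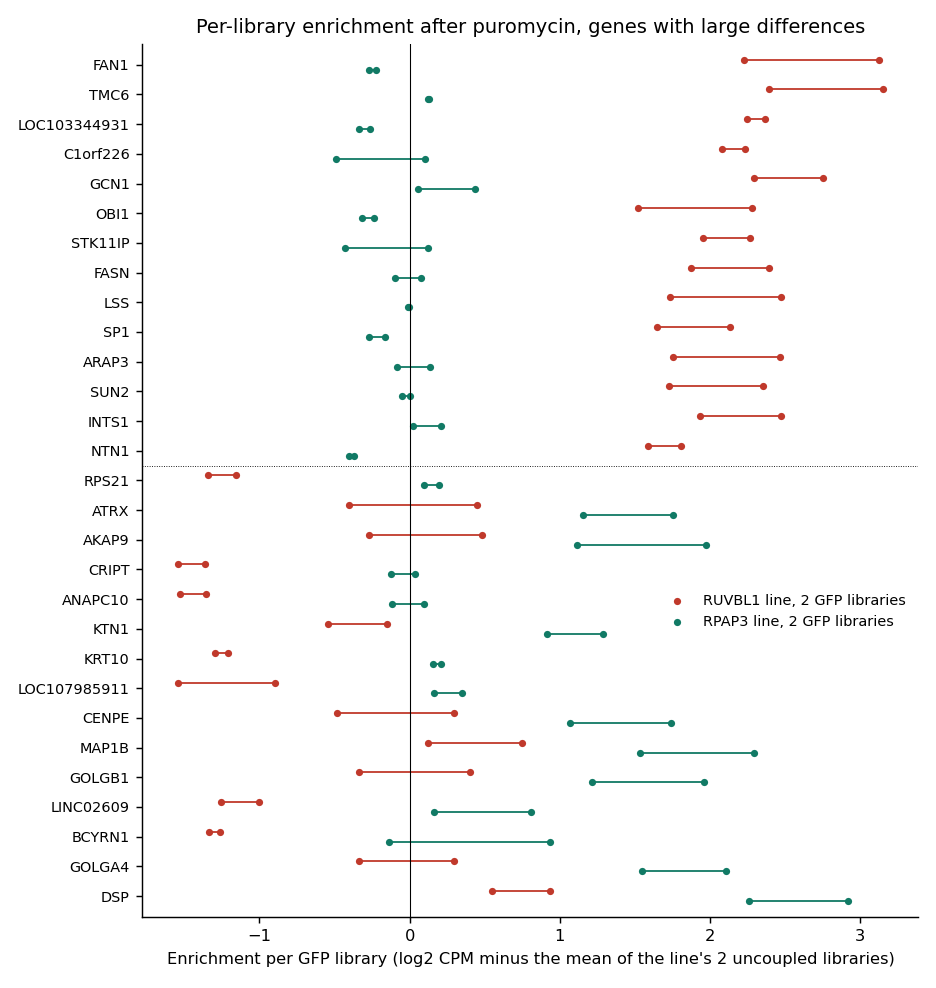
Enrichment of each GFP library after puromycin, as log2 CPM minus the mean of the 2 uncoupled libraries of its line, for 14 of the 15 genes with the largest positive and the 15 with the largest negative difference. Each dot is 1 library and a line joins the 2 of a bait, RUVBL1 drawn above RPAP3. In the upper 14 RUVBL1 lies at 1.52 or more and RPAP3 between −0.49 and 0.43. In the lower 15 some genes have RUVBL1 below 0 with RPAP3 near it, and others RPAP3 well above 0 with RUVBL1 near it.

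Per-library enrichments of the baits did not overlap in any of the 743 genes, but such separation was common, with 35.9% of all genes having both RUVBL1 values above both RPAP3 values and 31.3% having them below.

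The gene lists used here were chosen with earlier results of these data known, so their shares of calls are descriptive only. Membrane and secreted glycoproteins were the list with the most members higher with RUVBL1. Of 27 tested, 10 rose, against 3.98% of all genes, and 0 fell, and the median difference was 0.86 (log2), against 0.03 over all genes. NOTCH3, a receptor of the Notch pathway, had 79.4 and 125 CPM on RUVBL1 GFP beads and 22.8 and 30.4 CPM on uncoupled beads, against 12.4 and 13.3 CPM on RPAP3 GFP beads and 12.2 and 14.7 CPM on uncoupled beads. Its difference was 2.01 ± 0.37 (log2, SE; adjusted p = 0.002707, edgeR). NOTCH2 (1.67 ± 0.34), the semaphorin receptor PLXNA1 (1.62 ± 0.33) and the growth factor receptor ERBB2 (1.21 ± 0.27) rose too. So did NOTCH1, CELSR1, PTPRF, PLXNB2, IGF2R and ITGB4, named after their values were seen. RUVBL1 enrichment itself was called in 20 of the 27 and RPAP3 enrichment in 0, against 12.5% and 0.0958% of all genes. When the 3 libraries that stood apart were left out, 20 of 27 rose and 0 fell, against 10.2% and 7.23% of all genes.

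Very long cytosolic proteins divided. Of 38 tested, 5 rose (13.2%) and 1 fell (2.63%), against 3.98% and 0.473% of all genes, and the median was 0.54. FLNA, which crosslinks actin, had 1442 and 2000.0 CPM on RUVBL1 GFP beads and 399.7 and 426 CPM on uncoupled beads, against 217 and 264 CPM on RPAP3 GFP beads and 200.3 and 209.96 CPM on uncoupled beads, a difference of 1.83 ± 0.45. FASN, FLNC (1.32 ± 0.35, named after its value was seen), TLN1, which links integrins to actin (1.34 ± 0.35), and the myosin MYH14 (1.21 ± 0.30) also rose, and the microtubule protein MAP1B fell (−1.50 ± 0.43). The median RPAP3 enrichment of this list was 0.33 (log2), with 2 members called, so it was not confined to RUVBL1. FLNA lost its call in 8 of 20 settings and TLN1 in 7. The fit that left out the 3 libraries standing apart had 12 of 38 higher and 2 lower, against 10.2% and 7.23% of all genes.

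Mitochondrial matrix enzymes had 4 of 27 higher (14.8%) and 0 lower, against 3.98% and 0.473% of all genes. The 4 were the pyruvate carboxylase PC (1.84 ± 0.35), DLST and OGDH of the oxoglutarate dehydrogenase complex (1.29 ± 0.30 and 1.05 ± 0.28) and the protease LONP1 (1.11 ± 0.31). OGDH and LONP1 lost their calls in 7 of 20 settings each, DLST in 4 and PC in 0. Of 19 p53 targets, 2 were higher (10.5%, against 3.98% of all genes), the cell cycle inhibitor CDKN1A (1.86 ± 0.31) and FDXR (1.39 ± 0.33). CDKN1A had 436 and 743 CPM on RUVBL1 GFP beads and 137 and 178 CPM on uncoupled beads, against 297 and 301 CPM on RPAP3 GFP beads and 293 and 285 CPM on uncoupled beads. The ER chaperone list and the HSP90 and HSP70 list had 1 called member each, a share near the 3.98% of all genes called higher. These were HYOU1 of 19 ER chaperones and folding enzymes (1.71 ± 0.32) and the myosin chaperone UNC45A of 25 in the HSP90 and HSP70 system (1.69 ± 0.31). UPF1, the helicase of nonsense-mediated decay, and GCN1 were 2 of 19 in translation quality control (10.5%, against 3.98% of all genes). All of these were higher with RUVBL1. Medians of these lists lay between −0.16 and 0.30, and that of the ER list turned to −0.01 with upper-quartile factors. The CCT chaperonin and prefoldin list had 0 of 15 called in either direction and a median of −0.20. RUVBL1 depletion was called in 6 of its members, against 7.18% of all genes.

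PIKK kinases are known R2TP clients. Of 9 PIKK kinases and TTT subunits, MTOR (1.32 ± 0.32) and TRRAP (1.34 ± 0.39) rose and 0 fell. That is 22.2% of the list, against 3.98% of all genes called higher. MTOR had 159 and 195 CPM on RUVBL1 GFP beads and 55.8 and 66.9 CPM on uncoupled beads, against 40.7 and 40.7 CPM on RPAP3 GFP beads and 33.6 and 36.8 CPM on uncoupled beads. RPAP3 GFP beads lay slightly above their uncoupled beads there, with an enrichment of 0.21 that did not pass the test. TRRAP lost its call in 11 of 20 settings and MTOR in 5. Of 17 U5 and U4/U6 snRNP proteins, CD2BP2 (1.37 ± 0.26) and NCDN (1.58 ± 0.33) rose and 0 fell, 11.8% of the list, and of 3 TSC subunits TSC2 rose (1.16 ± 0.28). CD2BP2 is a U5 component, and NCDN, which encodes neurochondrin, was placed in this list as a U5 assembly partner.

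Of 30 RNA polymerase subunits, 30 INO80, SRCAP and TIP60 subunits, 11 R2TP and prefoldin-like subunits and 13 snoRNP proteins and assembly factors, 0 passed the test in either direction. Over all genes 3.98% were called higher and 0.473% lower. Without the 3 libraries that stood apart, these lists gave 0 higher and 6 lower, 4 and 2, 0 and 3, and 0 and 3. Of all genes in that fit 10.2% were higher and 7.23% lower. A list of 15 mRNAs recovered by both baits in untreated cells, chosen on these same libraries, had 0 higher and 1 lower and a median of 0.64. The 1 lower was GOLGA4. Its members PRPF8, the core splicing factor (1.30 ± 0.48), and POLR1A, the largest subunit of RNA polymerase I (1.37 ± 0.59), did not pass the test. PRPF8 had 579 and 697 CPM on RUVBL1 GFP beads and 203 and 201 CPM on uncoupled beads, against 273 and 334 CPM on RPAP3 GFP beads and 245 and 228 CPM on uncoupled beads. Its RUVBL1 enrichment of 1.66 ± 0.35 was called and its RPAP3 enrichment of 0.36 ± 0.34 was not.

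**Figure D4:**
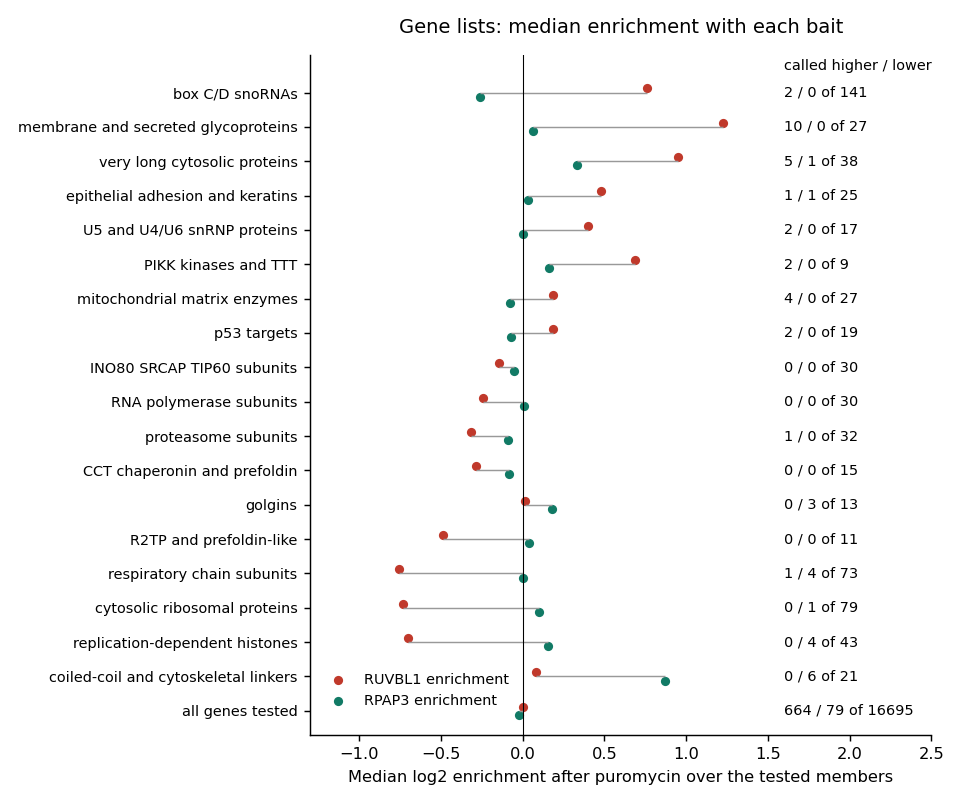
Median log2 enrichment after puromycin with RUVBL1 (upper dot) and RPAP3 (lower dot) over the tested members of 18 gene lists and over all genes, with the members called higher and lower in the difference at the right. Glycoproteins have a RUVBL1 median of 1.22 beside 0.06 for RPAP3, ribosomal proteins −0.74 beside 0.10, and coiled-coil and cytoskeletal linkers 0.08 beside 0.87.

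The 79 genes lower with RUVBL1 fell into 2 kinds. In 11 the RPAP3 enrichment was called and the RUVBL1 enrichment was not, and in 66 RUVBL1 depletion was called and RPAP3 enrichment was not. The remaining 2, the centriolar protein CNTRL (−1.16 ± 0.31) and ANKRD12 (−1.01 ± 0.27), had neither and are named after their values were seen. The 11 had a median RPAP3 enrichment of 1.48 and a median RUVBL1 enrichment of 0.02 (log2), and the 66 had 0.09 and −1.08. Both kinds were chosen on these enrichments, which fixes part of their medians.

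The 11 genes led by RPAP3 encode large proteins of cell junctions, the Golgi, the cytoskeleton and chromatin. DSP (chr6:7541671-7586714, GRCh38), desmoplakin, ties desmosomes to keratin filaments. It had 559 and 427 CPM on RUVBL1 GFP beads and 311 and 274 CPM on uncoupled beads, against 663 and 1049.5 CPM on RPAP3 GFP beads and 155 and 124 CPM on uncoupled beads. All 4 GFP libraries exceeded their uncoupled beads, by more in the RPAP3 line, where the uncoupled beads were also lower. RPAP3 enrichment was 2.62 ± 0.30 (log2, SE; adjusted p = 2.261e-05, edgeR), RUVBL1 enrichment was 0.75 ± 0.28 and not called (adjusted p = 0.06102), and the difference was −1.86 ± 0.40.

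GOLGA4 and GOLGB1 are golgins, long tethers of Golgi vesicles. GOLGA4 had 185 and 119.6 CPM on RUVBL1 GFP beads and 155 and 147 CPM on uncoupled beads, against 301 and 441 CPM on RPAP3 GFP beads and 99.9 and 105 CPM on uncoupled beads. GOLGB1 had 81.3 and 48.5 CPM on RUVBL1 GFP beads and 65.8 and 57.3 CPM on uncoupled beads, against 78.7 and 132 CPM on RPAP3 GFP beads and 33.3 and 34.5 CPM on uncoupled beads. In both genes the RUVBL1 GFP libraries fell on either side of their uncoupled beads, while both RPAP3 GFP libraries were above theirs. The differences were −1.84 ± 0.44 and −1.56 ± 0.40 (log2, SE).

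CENPE, the kinetochore kinesin, had 42.6 and 24.8 CPM on RUVBL1 GFP beads and 34.7 and 34.7 CPM on uncoupled beads, against 56.9 and 90.5 CPM on RPAP3 GFP beads and 24.7 and 29.6 CPM on uncoupled beads. Its difference was −1.48 ± 0.34. The golgin TRIP11 (−1.38 ± 0.28), the kinesin receptor KTN1 (−1.44 ± 0.32), the protein kinase A anchor AKAP9 (−1.43 ± 0.37), MAP1B, the TFIIIB subunit BDP1 (−1.37 ± 0.34), the DNA repair protein RAD50 (−1.36 ± 0.33) and the chromatin remodeller ATRX (−1.40 ± 0.40) made up the rest. In 9 of the 11, all but DSP and MAP1B, RUVBL1 GFP replicate 2 lay below the mean of its uncoupled beads.

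These calls were sensitive to single libraries. Of the 11, 0 were called without RUVBL1 GFP replicate 2 or without RUVBL1 uncoupled replicate 1, 1 without RPAP3 GFP replicate B, 3 and 6 without RPAP3 uncoupled replicate A or B, and 9 to 11 without any of the other 3. Total-count scaling kept 7, where 0.719% of all genes were lower and 3.61% higher. All 11 were called with upper-quartile factors (1.32% of all genes lower, 2.94% higher), RLE factors (0.731% and 3.77%), limma voom (1.32% and 5.52%), DESeq2, and without the 3 libraries that stood apart. The sign was negative in every setting.

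By list, coiled-coil and cytoskeletal linkers had 0 of 21 higher and 6 lower (28.6%), against 3.98% and 0.473% of all genes. The list was chosen with earlier results of these data known, which may fix part of this share. Their median difference was −0.98, with a median RPAP3 enrichment of 0.87 and a median RUVBL1 enrichment of 0.08. The 6 were DSP, GOLGA4, GOLGB1, CENPE, AKAP9 and ATRX. Golgins had 0 of 13 higher and 3 lower (23.1%, against 0.473% of all genes). GOLGA4 and GOLGB1 are in both lists, so the golgins are not separate evidence. Without the 3 libraries that stood apart, 10 of the 21 linkers and 3 of the 13 golgins were lower, and 0 and 1 were higher, against 7.23% of all genes lower and 10.2% higher.

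After CB-6644 and puromycin 163 genes were enriched with RUVBL1 (0.976% of those tested) and 3 depleted (0.018%), and all 16 genes enriched with RPAP3 after puromycin alone were among them. The 16 are the 11 genes above with AKAP12, KIF21A, MYH10, MYO5A and PCM1, named after their values were seen, whose difference was negative without passing the test. For the 11 the median RUVBL1 enrichment was 1.52 after both drugs (range 1.13 to 2.05) and 0.02 after puromycin alone. The 11 were taken where the difference after puromycin was called lower with RUVBL1 and RPAP3 enrichment was called. That choice favours low RUVBL1 enrichment after puromycin and so fixes part of the contrast. These enrichments come from libraries that share no sample with the RPAP3 line.

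DSP had 1200.0 and 1622 CPM on GFP beads after both drugs, against 387 and 294 CPM on uncoupled beads. GOLGA4 had 448 and 535 CPM on GFP beads after both drugs, against 152 and 136 CPM on uncoupled beads. In both genes each GFP library was above both uncoupled libraries. Replicate 1 of these GFP beads stood apart from the other libraries, and without it 12 of the 16 and 9 of the 11 were called, where 0.408% of all genes were higher. Without the 3 libraries that stood apart 13 of the 16 and 8 of the 11 were called, where 1.25% of all genes were higher, and the enrichments of the 16 lay between 1.11 and 2.23. Whether RUVBL1 enrichment of these genes changed between puromycin alone and both drugs was not tested here.

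**Figure D5:**
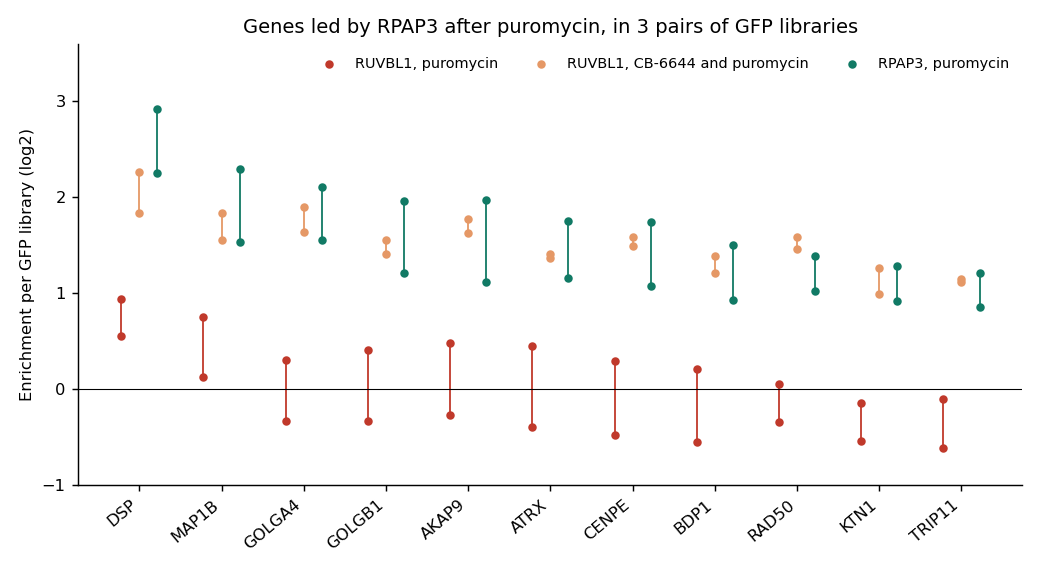
Enrichment of each GFP library (log2 CPM minus the mean of its 2 uncoupled libraries) for the 11 genes led by RPAP3 after puromycin, with RUVBL1 after puromycin at the left, RUVBL1 after CB-6644 and puromycin in the middle and RPAP3 after puromycin at the right of each gene. RUVBL1 dots after puromycin lie between −0.62 and 0.94, and RUVBL1 dots after both drugs between 0.99 and 2.27.

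The 664 genes higher with RUVBL1 after puromycin had a median RUVBL1 enrichment of 0.39 after both drugs, and 15 were called there, as were 0.976% of all genes. Both RUVBL1 libraries lay above 0 for 579 of them (87.2%), as they did for 31.7% of all genes. FAN1, which was called, had 45.7 and 56.6 CPM on GFP beads after both drugs, against 27.1 and 22.8 CPM on uncoupled beads. TMC6, which was not, had 128 and 167 CPM on GFP beads, against 104 and 92.6 CPM on uncoupled beads.

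RPS21, one of the 66 genes with RUVBL1 depletion and a protein of the small ribosomal subunit, had 275 and 313 CPM on RUVBL1 GFP beads and 753 and 646 CPM on uncoupled beads, against 616 and 660.4 CPM on RPAP3 GFP beads and 599 and 555 CPM on uncoupled beads. Both RUVBL1 GFP libraries lay below the other 6. The difference was −1.39 ± 0.39 (log2, SE; adjusted p = 0.0355, edgeR), and the call was lost without any 1 of the 8 libraries.

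RPS21 was the 1 member called of 79 cytosolic ribosomal proteins (1.27% lower, against 0.473% of all genes). The list as a whole lay low, with a median difference of −0.85 against 0.03 for all genes. RUVBL1 depletion was called in 34 of the 79, against 7.18% of all genes, and the RPAP3 median was 0.10. In 73 members both RUVBL1 values lay below both RPAP3 values, as they did in 31.3% of all genes. With the 8 puromycin libraries alone 64 were lower and 1 higher, against 9.77% and 12.9% of all genes. Leaving out the 3 libraries that stood apart gave 61 and 1, against 7.23% and 10.2%.

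Nuclear-encoded respiratory chain subunits had 4 of 73 lower and 1 higher, against 0.473% and 3.98% of all genes, with a median of −0.73. COX6A1 of cytochrome c oxidase had 87.0 and 91.2 CPM on RUVBL1 GFP beads and 218 and 177 CPM on uncoupled beads, against 180.2 and 177 CPM on RPAP3 GFP beads and 183 and 164 CPM on uncoupled beads. ATP5MG (−1.21 ± 0.36), ATP5PD (−1.06 ± 0.30) and NDUFB7 (−1.01 ± 0.30, named after its value was seen) fell too. RUVBL1 depletion was called in 42 of the 73, against 7.18% of all genes, and without the 3 libraries that stood apart 48 were lower and 4 higher, against 7.23% and 10.2%.

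Replication-dependent histones had 4 of 43 lower and 0 higher, against 0.473% and 3.98% of all genes, with a median of −0.87. H3C2 had 287 and 303 CPM on RUVBL1 GFP beads and 839 and 448 CPM on uncoupled beads, against 781 and 789 CPM on RPAP3 GFP beads and 758 and 609 CPM on uncoupled beads. The RUVBL1 uncoupled libraries were far apart, and without replicate 1 of them the difference of H3C2 was −0.80 in place of −1.32. H2AC11 (−1.27 ± 0.31), H2AC4 (−1.18 ± 0.29) and H4C2 (−1.13 ± 0.29) were also lower. Histone genes are near-identical copies, so reads may be split between them. In the fit that left out the 3 libraries standing apart, 27 of 45 were lower and 0 higher, against 7.23% and 10.2% of all genes.

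BCYRN1, a small cytoplasmic RNA related to Alu repeats, had the largest negative difference among non-coding RNAs at 5 CPM or more. It had 44.1 and 41.8 CPM on RUVBL1 GFP beads and 108.4 and 103 CPM on uncoupled beads, against 19.9 and 41.8 CPM on RPAP3 GFP beads and 22.3 and 21.4 CPM on uncoupled beads. Here the uncoupled beads stood apart between the lines, 2.27 higher (log2) in the RUVBL1 line. The difference was −1.79 ± 0.38. The 15 largest negative differences also took in KRT10, a keratin (−1.46 ± 0.35), ANAPC10 of the anaphase-promoting complex (−1.44 ± 0.42), CRIPT (−1.44 ± 0.37), LINC02609 and LOC107985911. ANAPC10 and LOC107985911 lost their calls without any 1 of the 8 libraries.

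The higher genes were nearly all mRNAs. Of the 664, 659 were protein coding (99.2%), against 83.9% of the genes tested. Median gene spans were 37920 bp for the 664, 7147 bp for the 66 with RUVBL1 depletion and 102100 bp for the 11 led by RPAP3, against 27060 bp for all genes tested. A gene span counts introns and is not the length of the mRNA, and these figures describe sets chosen on the difference. Where RefSeq promoters (GRCh38.p14) were given, the 250 bases upstream had a median GC content of 69.2% for the higher genes, against 64.8% for protein-coding genes tested. The share called higher was 2.0% of the 2299 genes with a promoter GC of at most 55.2% and 8.25% of the 2182 genes with at least 74.0%. Transcript GC content, length and library GC bias were not tested.

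Calls also followed abundance. Of the 3339 genes lowest in mean CPM 2 were higher and 1 lower, and of the 3339 genes highest in mean CPM 230 and 31. Below 5 CPM there were 9 calls, including the box C/D snoRNAs SNORD31 and SNORD33, which guide RNA methylation. SNORD31 had 0.876 and 3.04 CPM on RUVBL1 GFP beads and 0.0971 and 0.168 CPM on uncoupled beads, against 0.0631 and 0.205 CPM on RPAP3 GFP beads and 0.275 and 0.709 CPM on uncoupled beads. They were the 2 called of 141 box C/D snoRNAs, both higher (1.42%, against 3.98% of all genes). The list had a median difference of 1.22 (log2), against 0.03 over all genes. With limma voom the median was 0.73 and 0 were called. In 76 members both RUVBL1 values lay above both RPAP3 values and in 13 below, against 35.9% and 31.3% of all genes. SNORD33 lost its call in 12 of 20 settings and SNORD31 in 5 of 19.

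The difference between the baits was also present in part without the drug. In untreated cells 68 genes differed (0.407% of those tested), 58 higher with RUVBL1 (0.347%) and 10 lower (0.0599%). Of the 664 higher after puromycin, 43 were also called higher in untreated cells, which is 6.48% of the 664 and 74.1% of the 58. FAN1, TMC6, OBI1, SP1, NTN1 and CDKN1A were among them, with untreated differences of 1.82, 1.83, 2.15, 1.49, 1.64 and 1.60. Of the 79 lower, 3 were called lower in untreated cells, namely GOLGA4 (−2.31), BDP1 (−1.51) and KTN1 (−1.44), which is 3.8% of the 79 and 30.0% of the 10.

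The sign in untreated cells was the same for 603 of the 664 and 64 of the 79. The share of all genes with the same sign was not computed, so these counts have no reference. GCN1 and FASN had small untreated differences, 0.34 and 0.58, that did not pass the test. Across genes the difference after puromycin and that in untreated cells had a Pearson r of 0.12 and a Spearman rho of 0.25 over 16695 genes, as a description, since genes are not independent replicates and low counts enter it. RUVBL1 and RPAP3 enrichment after puromycin had an r of −0.01 and a rho of 0.08.

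Whether the difference between baits itself changed with puromycin was tested as an interaction over all 4 pairs of groups. In edgeR 0 genes passed and 1053 had an unadjusted p under 0.05. DESeq2 called 6, limma voom 1, and the fit with no filter on low counts 9. Without replicate 2 of the untreated RUVBL1 uncoupled beads 37 genes passed, and without all 3 libraries that stood apart 1146 passed, 709 of them higher after puromycin and 437 lower.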

How the data were processed

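RNA from immunoprecipitates was made into stranded SMART-Seq libraries, per the labels' protocols. The deposited table holds raw read counts per gene, per the file headers. The submitters' processing notes name featureCounts 2.0.3, TopHat2 2.1.1, the build hg38 and, for base calls and read quality, bcl2fastq 2.20.0.422, MultiQC 1.12 and FastQC 0.11.9. The annotation and the strand and multi-mapping settings are not given in the sources used here. Of 27790 gene IDs, 27757 matched the GRCh38.p14 reference table.

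From these counts, genes were filtered with filterByExpr, scaled with TMM and fitted in edgeR 4.0.16 (R 4.3.3) with 1 mean for each of 12 groups of 2 libraries. Contrasts used the quasi-likelihood test with Benjamini-Hochberg adjustment over all 16695 genes, called at an adjusted p under 0.05. CPM values use the TMM factors. Per-library enrichment is log2 CPM (prior count 2) of a GFP library minus the mean of the 2 uncoupled libraries of its line. Alternatives were other scalings, no filter, DESeq2 1.42.0, voom in limma 3.58.1, other sets of libraries, the replicate block and leaving out each library.

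Genes named are the 15 with the largest difference in each direction among those called with a mean of at least 5 CPM and no overlap between baits, up to 4 members of each list, and the baits with RUVBL2. Others are said to be named after their values were seen. The members and lists were chosen with earlier results of these data known. The same-numbered GFP and uncoupled libraries after puromycin had deviations that correlated at 0.04 for RUVBL1 and −0.13 for RPAP3, so the numbers were not taken as pairs. Some named genes are not reported here.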

Additional observations from a re-analysis of the deposited data

Results flagged for a closer look

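The enrichment after puromycin differed between the RUVBL1 and the RPAP3 line in 664 genes that were higher with RUVBL1 and in 79 genes that were lower, by edgeR's test of the difference itself. Bait, line and experiment cannot be told apart in this design.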

How the results depend on the processing

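No named gene that was called for the difference after puromycin changed sign under the alternatives. Of the named genes that were not called, AGO3, SMG1, SCAF8, TBC1D7, ACTA2, TF, LYZ, HBA1 and PECAM1 took both signs. For the difference after puromycin, where 743 genes were called, DESeq2 gave 1438, voom 1142, the 16 libraries without CB-6644 1563 and the 8 puromycin libraries 3435. The other scalings gave 711 to 752 and no filter 1102, of which 884 were higher. RPAP3 enrichment, at 16, gave 3 with total-count scaling, 42 with no filter, 38 with DESeq2, 42 with voom and 70 with the libraries of that line. The difference in untreated cells, at 68, gave 146 with no filter, 191 with DESeq2, 122 with voom and 108 with 16 libraries. The change of the difference, at 0, gave 9 with no filter, 6 with DESeq2, 1 with voom and 1 with 16 libraries. Without the 3 libraries that stood apart, an alternative chosen after seeing the data, the counts were 2998 after puromycin, 5393 for RUVBL1 enrichment, 43 for RPAP3 enrichment, 761 in untreated cells and 1146 for the change. Leaving out 1 library gave 81 to 762 after puromycin, 1045 to 2294 for RUVBL1 enrichment, 1 to 26 for RPAP3 enrichment, 13 to 112 in untreated cells and 0 to 37 for the change. The causes were not tested.

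With the replicate block, which rests on numbers that the data do not show to be pairs, 886 genes were called after puromycin, 29 for RPAP3 enrichment and 110 in untreated cells. In the 8 puromycin libraries alone the block gave 4216, and 3985 with the RPAP3 uncoupled replicates crossed, both chosen after seeing the data. The spread between replicates was wider in the RUVBL1 line (biological coefficient of variation 0.263) than in the RPAP3 line (0.142), and 1 estimate served both. In the 4 puromycin libraries alone it was 0.157 for RUVBL1 and 0.111 for RPAP3, against 0.229 over the 24 libraries. Below 5 CPM, 9 of the 743 genes were called.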

Other observations

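The single genes given here were picked after their values were seen, from those called for the difference after puromycin, and stand for no group. EXTL3, a heparan sulfate glycosyltransferase, differed by 1.85 ± 0.27 after puromycin (log2, SE) and 1.44 ± 0.27 in untreated cells. The chondroitin sulfotransferase CHST3 differed by 1.87 ± 0.30 and 1.56 ± 0.29, the heparan sulfate sulfotransferase NDST1 by 1.54 ± 0.29 and 1.40 ± 0.29, and GALNT2, which starts mucin-type glycans, by 1.32 ± 0.27 and 1.25 ± 0.27. After puromycin the phosphatase PTPRK differed by 1.96 ± 0.30, the protease MMP14 by 2.02 ± 0.46 and the ephrin receptor EPHB3 by 2.09 ± 0.52.

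Among genes picked in the same way that were lower with RUVBL1, the mitochondrial import subunits TOMM5 (−1.34 ± 0.35), TIMM8B (−1.34 ± 0.36) and TOMM6 (−1.05 ± 0.29) and the cytochrome c oxidase assembly factors COX17 (−1.20 ± 0.34) and COX14 (−1.15 ± 0.33) were called, each with RUVBL1 depletion and an RPAP3 enrichment that did not pass the test.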
